A study of Sus scrofa with 61 samples.

Results

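The genes for titin, nebulin and their partners at the Z-disc and M-band of the muscle fibre were examined in the longissimus muscle of pig fetuses. The set held 10 genes, TTN, NEB, MYOM1, MYOM2, MYBPC1, MYBPC2, MYOZ1, MYOZ2, LDB3 and TCAP, and every probe that the array or the additional gene lists of the study named for them was taken. This gave 39 of the 60305 probes on the array, namely 14 for LDB3, 5 for TTN, 4 for MYOZ1, 3 each for NEB, TCAP and MYBPC1, 2 each for MYBPC2, MYOM1 and MYOM2, and 1 for MYOZ2. All 39 were among the 42436 probes kept, which cleared background in 80% or more of the fetuses of any single group, and the 10 genes were among 9638 gene symbols that those probes carry. Of the 39, 38 were well above background on all 61 arrays, and a dim MYBPC2 probe (A_72_P206417) was so on 51 arrays, with 3 of 8 LW fetuses at day 90. No member spot was saturated.

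The study asked how muscle matures before birth in breeds that differ in piglet survival, and all of its fetuses were males. The sows were Large White (LW) or Meishan (MS), and since semen from boars of both breeds was pooled, littermates could be purebred or crossbred. LWMS fetuses had an MS sow and an LW boar, and MSLW fetuses had an LW sow and an MS boar. At gestational day 90 each genotype had 8 fetuses. At day 110 there were 9 LW, 7 MS, 8 LWMS and 5 MSLW fetuses. Each fetus had its own 1-colour array. The labels do not name the sow, so littermates were counted as separate fetuses and the p-values below may in part measure shared litters.

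In striated muscle, titin is a giant elastic protein that spans from the Z-disc to the M-band, and nebulin runs along the thin filament. Telethonin (TCAP) caps the titin ends at the Z-disc, the myozenins (MYOZ1 in fast and MYOZ2 in slow fibres) tie alpha-actinin there to calcineurin and other partners, and LDB3 (ZASP, Cypher) is a PDZ-LIM protein that binds alpha-actinin. The myomesins link myosin and titin at the M-band, MYOM2 (M-protein) mostly in fast fibres, and the myosin-binding proteins C sit on the thick filament, MYBPC1 being the slow and MYBPC2 the fast skeletal form. Late gestation is when pig fibres settle into their fast and slow types.

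Values are normalized log2 intensities, in which a difference of 1 is a doubling of signal, and levels of different probes cannot be compared with each other. Between 34346 and 45683 probes were well above background per array. An MSLW array of day 90 (replicate 2) stood apart, with an SD of 0.706 around its group mean over all kept probes against a median of 0.331, and without it every count of called member probes given here moved by at most 1. The probe of fetal muscle myosin MYH3 and those of the 6 fibre markers (ACTA1, CKM, MYLPF, TNNC2, TNNT3, MYH1) were bright, as the tissue label calls for. With age 4 of the 6 fibre markers rose and 1 fell, and of 10 fast fibre genes 7 rose and 1 fell. Of all kept probes 37.3% rose and 35% fell. Signs of other tissue moved with age. The summed normalized intensity of 5 fibroblast genes had group medians of 339637 to 358111 at day 90 and of 83900 to 169886 at day 110, and all 5 fell (median log2 change -1.44). Of 4 endothelial genes, 3 fell and VWF rose (1.29), all 3 adipocyte genes fell, 2 of 3 Schwann cell genes rose and none fell, and MYH3 fell by 2.57. In whole muscle, fewer cells of a type and less RNA per cell cannot be told apart, and the part of these shifts in the results below was not tested.

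The scaling of the arrays bears on every direction below. Under quantile normalization, used here as by the authors, the 2002 brightest kept probes (mean log2 of 14 or more) had a median age change of -0.13. When each array was instead scaled to its 75th percentile, their median was 0.38, while the median of all kept probes moved from 0.038 to 0.092, and in MS from 0.033 to 0.13. Small falls or differences in bright member probes are therefore given with the value under that other scaling.

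The probe sequences are shown for members whose probes differ in what they reported, since the probes of a gene are the unit measured. The strand of each probe relative to the transcript is not given in the files, so the letters are printed 5′ to 3′ as the array design lists them. The titin probes do not overlap each other, and the capitals in the first mark a run of 14 bases that occurs at 2 places in it.
TTN O14051: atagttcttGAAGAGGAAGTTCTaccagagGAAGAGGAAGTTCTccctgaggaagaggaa
TTN A_72_P356223: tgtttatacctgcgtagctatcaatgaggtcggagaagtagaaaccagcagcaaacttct
TTN A_72_P001516: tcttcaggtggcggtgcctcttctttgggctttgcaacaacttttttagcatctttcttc
TTN A_72_P379383: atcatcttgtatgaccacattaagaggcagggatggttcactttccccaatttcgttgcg
TTN A_72_P312298: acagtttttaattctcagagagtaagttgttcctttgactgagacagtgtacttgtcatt
The first nebulin pair shares the 26 bases in capitals, so its members are not independent readings, and the brightest nebulin probe lies elsewhere.
NEB O4551: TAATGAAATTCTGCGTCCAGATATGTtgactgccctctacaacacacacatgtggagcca
NEB CUST_438_PI427286967: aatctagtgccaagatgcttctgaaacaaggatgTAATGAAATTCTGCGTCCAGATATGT
NEB A_72_P597843: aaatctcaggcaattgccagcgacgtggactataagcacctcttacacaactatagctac
The MYBPC2 probes are shown because they carried the largest breed difference in the set.
MYBPC2 O11393: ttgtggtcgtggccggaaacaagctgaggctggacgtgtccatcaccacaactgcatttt
MYBPC2 A_72_P206417: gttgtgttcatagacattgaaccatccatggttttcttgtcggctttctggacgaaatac
The TCAP pair overlaps over most of its length, and the part of the overlap around the bases that differ is shown, with capitals for bases that the pair does not share.
TCAP A_72_P587751: cggagacaatgagaaaaaagtgaAagagg
TCAP A_72_P342928: cggagAacaatgagaaaaaagtgaGagagg
The first 30 bases are shown for the LDB3 probes that moved in opposite directions between the breeds.
LDB3 A_72_P508586: gcccaacagctgtttttctaccttgtttaa
LDB3 A_72_P610399: ttaatagttcatggggggagtacactatgg

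The first comparison asked which of these genes changed between day 90 and day 110. On the mean of the 4 genotypes, 37 of 39 member probes changed at an adjusted p under 1%, 26 of them higher and 11 lower at day 110, beside 72.3% of all kept probes (37.3% higher and 35% lower). Because most of the array changed, the count alone does not set the members apart. The probes named only by the study's list, which was drawn from these same fetuses, are all among the rises. The count and the median of the members are therefore not independent of that list. Their median age change was 0.39 against 0.038 over all kept probes, which is not particular to them. Medians were 0.42 for other Z-disc genes, 0.43 for other M-band and thick filament genes and 0.40 for fast fibre genes. Titin-bound and turnover genes had 0.75, thin filament length genes 0.74, slow fibre genes 0.25 and fibre markers 0.23. Assembly chaperones went the other way, at -0.19. Under scaling to the 75th percentile the split of the member probes was 32 higher and 0 lower, beside 40.2% and 31.5% of all kept probes. By brightest probe, TTN, NEB, MYOM2, MYBPC2, MYOZ1, MYOZ2, LDB3 and TCAP rose, MYBPC1 fell slightly and MYOM1 did not pass the test. For the 8 genes that rose, the age difference was above 0 on each of the 8 array slides.

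**Figure D1:**
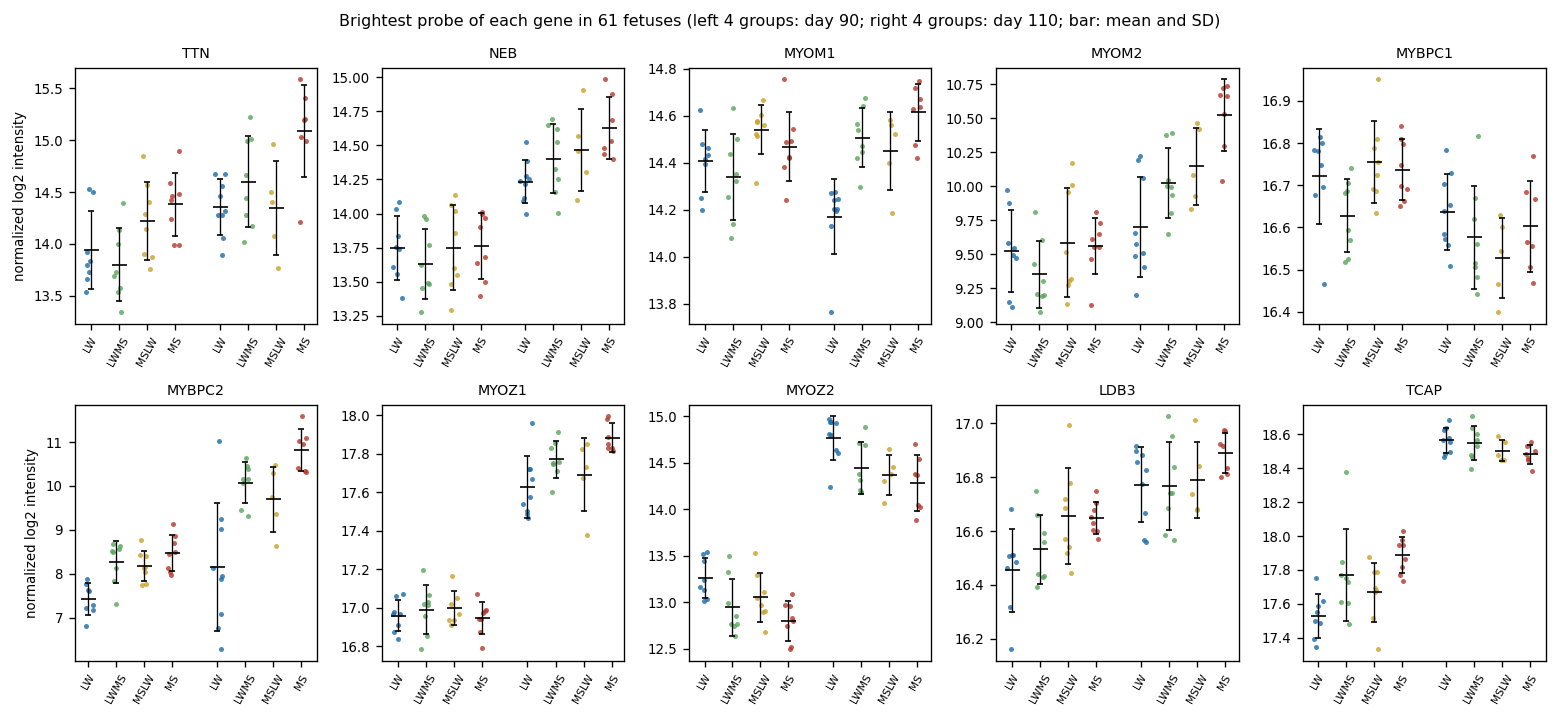
Normalized log2 intensity (y axis) of the brightest probe of each gene in every fetus, by genotype, with day 90 on the left and day 110 on the right of each panel; bars give the group mean and SD. MYOZ2, TCAP and MYOZ1 show day 110 above day 90 without overlap within any genotype, while MYOM1 overlaps between the ages in every genotype and MYBPC1 in all but MSLW.

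Within genotypes, 24 member probes changed with age in LW, 16 higher and 8 lower (45.3% of all kept probes changed, 21.8% higher and 23.5% lower). In MS, 33 changed, 25 higher and 8 lower (56.7%, 28.6% and 28.1%). LWMS fetuses had 26, with 23 higher and 3 lower (50.9%, 25.1% and 25.7%), and MSLW fetuses also had 26, with 16 higher and 10 lower (44.6%, 20.8% and 23.8%). With the 75th percentile scaling no member probe fell in any genotype, and 19 (LW), 27 (MS), 26 (LWMS) and 20 (MSLW) rose, beside 22.9%, 32.8%, 27.6% and 22.9% of all kept probes. The member probes counted here include those that only the study's list names.

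**Figure D2:**
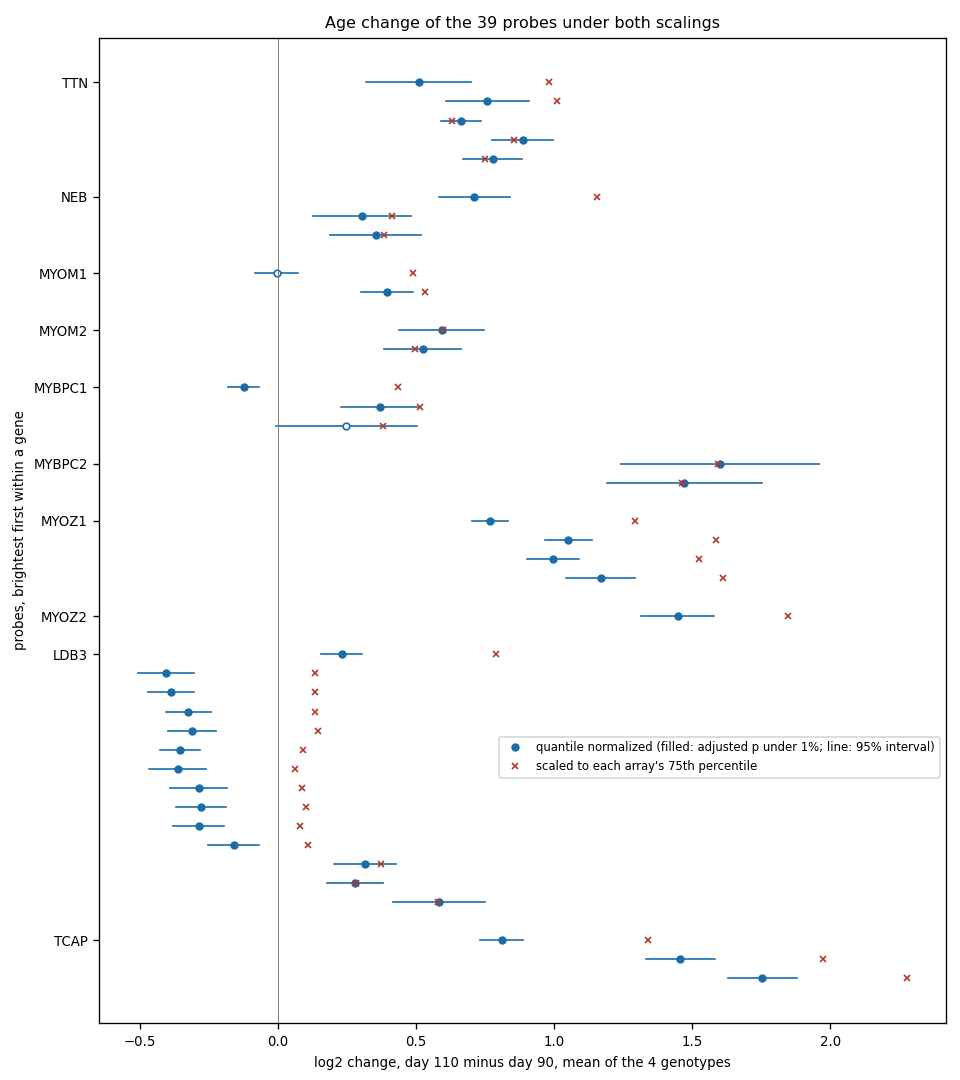
Log2 change from day 90 to day 110, averaged over the 4 genotypes, for each of the 39 probes (circles, with 95% intervals; filled where the adjusted p was under 1%), and the same change with each array scaled to its 75th percentile (crosses). Under quantile normalization 10 of the 14 LDB3 probes lie below 0, and all 10 lie 0.061 to 0.15 above 0 under the other scaling, while the probes of TTN, NEB, MYOM2, MYBPC2, MYOZ1, MYOZ2 and TCAP are above 0 under both.

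The probes that carry the name of titin, the elastic filament, rose toward birth. A brighter pair described as titin without the name changed by 0.16 and 0.079, the second short of the threshold. Neither of that pair was called between the breeds at either age. Other probes described as titin gave 0.53, 1.27 and -0.47. The brightest named probe (O14051) ranged from 13.53 to 14.53 in LW at day 90 (median 13.82) and from 13.89 to 14.68 at day 110 (median 14.32). In MS it ranged from 13.99 to 14.89 (median 14.44) and from 14.21 to 15.59 (median 15.20). All genotypes overlapped between the ages, and the 5 MSLW fetuses of day 110, at 14.41, 14.50, 13.77, 14.96 and 14.07, lay inside the range of day 90, 13.76 to 14.85, but for the highest. The mean age change was 0.51 ± 0.10 (SE, limma adjusted p = 3.5e-06), and the purebreds gave 0.42 ± 0.18 (LW, adjusted p = 0.044, short of the 1% threshold) and 0.70 ± 0.19 (MS), the crosses 0.80 ± 0.18 (LWMS) and 0.12 ± 0.21 (MSLW, adjusted p = 0.65). All 5 named titin probes rose on the mean of the genotypes, by 0.51 to 0.89, and all 5 rose in MS, by 0.70 to 1.20, against 0.42 to 0.55 in LW, where 4 passed. A_72_P001516, A_72_P379383 and A_72_P312298 were named only by a list drawn from these fetuses for an age change that varied by genotype. Their larger rise in MS is therefore not independent evidence. The brightest named titin probe rose less than the other named ones, by 0.26 (diffSplice adjusted p = 0.0021). Those others include the probes of that list, so this comparison is not independent of how they were chosen. The remaining named probe, A_72_P356223, rose by 0.76, and the probes described as titin without the name were left out of the comparison.

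At day 110 all 5 probes that carry the titin name stood higher in MS than LW, by 0.44 to 0.73, whereas at day 90 none of the 5 passed, with estimates from -0.024 to 0.44. For the brightest probe the day 110 difference was 0.73 ± 0.19 (adjusted p = 0.0011), though 1 MS fetus at 14.21 lay within the LW range and the other 6 lay above it. Of the 5 probes, A_72_P001516, A_72_P379383 and A_72_P312298 were named only by the study's list of genes with an age effect that varied by genotype in these same fetuses, so their behaviour is not independent evidence of that pattern. The other pair gave 0.73 and 0.55.

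Nebulin, which runs along the thin filament, gave different readings at different places. Its brightest probe (A_72_P597843) had medians of 13.75 in LW (13.38 to 14.08) and 13.79 in MS (13.40 to 14.01) at day 90, and at day 110 of 14.24 for LW (13.9997 to 14.53) and 14.53 for MS (14.40 to 14.99). The MS and LWMS ranges of both ages did not overlap, and the LW and MSLW ranges did. It rose in all 4 genotypes, by 0.48 ± 0.12 and 0.87 ± 0.13 in the purebred LW and MS and by 0.77 ± 0.12 and 0.72 ± 0.14 in the crosses LWMS and MSLW. The day 110 value was 0.40 ± 0.12 greater in MS (adjusted p = 0.00878), a difference of 0.69 under 75th percentile scaling that did not pass with non-uniform spots kept (adjusted p = 0.0111). The overlapping pair printed above behaved otherwise. O4551 changed by -0.076 ± 0.17 in LW (adjusted p = 0.72) and rose by 0.71 ± 0.18 in MS, and its partner gave -0.036 and 0.66. At day 90 both differed between MS and LW, by -0.61 and -0.54 (lower in MS, adjusted p = 0.00663 and 0.00955), a difference that the brightest probe did not show (0.014 ± 0.12). Under 75th percentile scaling the day 90 difference of the pair kept its size, -0.58 and -0.53, and only that of O4551 passed. The brightest probe rose by 0.38 more than the other nebulin probes over the genotypes (diffSplice adjusted p = 0.00063).

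The M-band genes parted. MYOM2, the M-protein of fast fibres, rose with its brightest probe (A_72_P064551) in MS and in both crosses and did not pass in LW. In LW that probe ranged from 9.11 to 9.97 at day 90 (median 9.52) and from 9.20 to 10.22 at day 110 (median 9.57). In MS it ranged from 9.13 to 9.81 (median 9.58) and from 10.04 to 10.74 (median 10.66), without overlap. The 5 MSLW fetuses at day 110 had 10.42, 10.08, 9.93, 10.46 and 9.83, and the 8 LWMS fetuses 9.65 to 10.39, so that both crosses lay between the medians of the purebreds. The age change was 0.18 ± 0.14 in LW (adjusted p = 0.31), and the rises were 0.96 ± 0.15 for MS, 0.67 ± 0.15 for LWMS and 0.56 ± 0.17 for MSLW. MS exceeded LW by 0.82 ± 0.15 at day 110 (1.77-fold, adjusted p = 1.1e-05) while the estimate at day 90 was 0.038 ± 0.15. The dimmer MYOM2 probe gave 0.60 at day 110 and -0.20 at day 90, and its age change in MSLW did not pass (0.41, adjusted p = 0.019) except with the array slide as a block (adjusted p = 0.009).

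MYOM1, which encodes myomesin, did not pass for age with its brightest probe under quantile normalization (-0.00367 ± 0.04, adjusted p = 0.93) but rose by 0.49 under 75th percentile scaling. Its second probe, which was named only by the study's list, rose by 0.39 under quantile normalization and by 0.53 under the other scaling. Values of the brightest probe ran from 14.20 to 14.63 (median 14.43) in LW at day 90 and from 13.76 to 14.28 (median 14.21) at day 110, and in MS from 14.24 to 14.76 (median 14.46) and from 14.42 to 14.75 (median 14.64). The LW fetuses of day 110 therefore lay below every MS fetus of that age. The fall in LW was -0.24 ± 0.07 (adjusted p = 0.0046), which became 0.11 under the other scaling, while the difference between the breeds at day 110, 0.44 ± 0.08 higher in MS (adjusted p = 3.2e-06), held under both (0.74 with the 75th percentile).

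The fast myosin-binding protein C gene, MYBPC2, had the widest range of the set. In LW at day 90 its brighter probe (O11393) ranged from 6.80 to 7.87 (median 7.45), and in MS from 7.98 to 9.14 (median 8.47), without overlap. At day 110 the MS fetuses ranged from 10.32 to 11.58 (median 10.95). The 9 LW fetuses of that age were scattered from 6.28 to 11.02 (median 7.95), the highest of them (replicate 9) within the MS range and the next at 9.24 below it. After the MSLW array named above, the array of replicate 9 lay farthest from its group over all kept probes. Its SD was 0.450 against a median of 0.331, and no fit without it was run. LWMS fetuses had 7.32 to 8.67 at day 90 (median 8.51) and 9.30 to 10.64 at day 110 (median 10.15), without overlap. MSLW fetuses had 7.74 to 8.76 at day 90 (median 8.14) and 10.47, 9.74, 8.63, 10.29 and 9.36 at day 110, the lowest of which reached into the range of day 90. The rise was 2.34 ± 0.36 in MS (5.08-fold, adjusted p = 8.1e-08), 1.81 ± 0.35 in LWMS and 1.52 ± 0.39 in MSLW, and the change in LW was 0.73 ± 0.34 (adjusted p = 0.059). MS exceeded LW by 2.67 ± 0.35 at day 110 (6.34-fold, adjusted p = 1.1e-08) and by 1.06 ± 0.35 at day 90 (adjusted p = 0.022). Across the alternative processings the brighter probe gave 2.36 to 2.71 at day 110, past the threshold in each, and 0.89 to 1.07 at day 90, past it in none. The dimmer probe, which rests on the study's list, was above background in 3 of 8 LW fetuses at day 90 and 6 of 9 at day 110 and was kept through groups where it is high, so its values are a description only. It gave 2.23 at day 110 and 1.31 at day 90, and a change of 1.14 in LW between the ages. With normexp background correction these were 1.01, 0.31 and 0.30, and the last pair no longer passed.

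The slow form, MYBPC1, moved little. Its brightest probe (O12882) ranged at day 90 from 16.47 to 16.81 (LW, median 16.76) and from 16.65 to 16.84 (MS, median 16.72), and at day 110 from 16.51 to 16.78 (median 16.64) and from 16.47 to 16.77 (median 16.56). The ages overlapped except in MSLW, where the 5 fetuses of day 110, at 16.60, 16.63, 16.40, 16.54 and 16.47, lay at or below the lowest of day 90. Its mean age change was -0.12 ± 0.03 (adjusted p = 9.1e-05), and this turned to 0.43 under 75th percentile scaling, so its direction turned with the scaling. The dimmer MYBPC1 probes gave 0.37, past the threshold, and 0.25, short of it (adjusted p = 0.068). No MYBPC1 probe passed between MS and LW at either age, although under 75th percentile scaling the brightest was 0.28 higher in MS at day 110 and passed.

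Both myozenins rose in every genotype. MYOZ2, the form of slow fibres, had in LW medians of 13.20 (13.01 to 13.54) at day 90 and 14.81 (14.24 to 14.96) at day 110, and in MS medians of 12.81 (12.49 to 13.08) and 14.37 (13.88 to 14.70). No genotype overlapped between the ages, and MS lay below LW at both with some overlap. Its rise was 2.83-fold and 2.79-fold in LW and MS, 2.82-fold and 2.49-fold in LWMS and MSLW, and 1.45 ± 0.07 or 2.73-fold on the mean (adjusted p = 8.8e-28). MS differed from LW by -0.46 ± 0.13 at day 90 (lower in MS, adjusted p = 0.00575) and by -0.48 ± 0.13 at day 110 (adjusted p = 0.00195), and under 75th percentile scaling by -0.44 and -0.26, neither past the threshold. The day 90 difference also fell short in the authors' normalized values (-0.43, adjusted p = 0.0105) and with the median signal (-0.42, adjusted p = 0.011). A further 11 probes that carry a MYOZ2 RefSeq accession and no gene name, looked at after the values were seen, all rose, by 1.27 to 1.98, and all were lower in MS, by -0.63 to -0.44 at day 90 and by -0.55 to -0.47 at day 110. These 11 were not examined under other scalings. They read the same gene in the same fetuses, so they are not independent of each other or of the named probe.

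MYOZ1, the form of fast fibres, ran at day 90 from 16.84 to 17.07 (LW, median 16.97) and from 16.79 to 17.07 (MS, median 16.96) with its brightest probe, and at day 110 from 17.47 to 17.96 (median 17.57) and from 17.81 to 17.99 (median 17.85). For that probe 1 MSLW value of day 90 was missing because its spot was not uniform. Day 110 lay above day 90 in every genotype. It rose by 0.67 ± 0.06 in LW and 0.94 ± 0.06 in MS, and by 0.78 ± 0.06 and 0.69 ± 0.07 in the crosses LWMS and MSLW. All 4 probes rose, by 0.77 to 1.17, and at day 110 all 4 stood 0.26 to 0.45 above LW in MS, while none passed at day 90 (-0.18 to -0.012). Under 75th percentile scaling the brightest probe rose by 1.29 on the mean and differed by 0.60 at day 110, and with the median signal it differed there by 0.23 without passing (adjusted p = 0.0113). At day 110, then, the estimates for fast-fibre MYOZ1 and slow-fibre MYOZ2 lay on opposite sides of 0 in the comparison of MS with LW, that of MYOZ2 short of the threshold under 75th percentile scaling.

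The Z-disc gene LDB3 gave no single age direction. Its brightest probe (A_72_P393178) rose by 0.23 ± 0.04 on the mean (adjusted p = 1.2e-07), from medians of 16.50 to 16.83 in LW and 16.64 to 16.91 in MS, where the ages did not overlap. Another 10 of the 14 probes fell, by -0.41 to -0.16, and the remaining 3 rose, by 0.28, 0.32 and 0.58. Under 75th percentile scaling the 10 falls became changes of 0.061 to 0.15, of which 3 passed as rises, and the 4 rises remained. Against the other LDB3 probes, 13 of 14 differed in age change by diffSplice, the 4 rising probes upward. A pair of LDB3 probes (A_72_P119011 and A_72_P558279) shares a run of 57 bases and another (A_72_P593244 and A_72_P693904) a run of 37, so these are repeats of a reading.

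Between breeds, a pair of LDB3 probes stood apart in opposite directions. A_72_P508586 ranged in LW from 8.63 to 9.02 at day 90 (median 8.87) and from 8.55 to 9.72 at day 110 (median 9.22), and in MS from 10.04 to 10.57 (median 10.20) and from 10.27 to 10.68 (median 10.51). The breeds did not overlap at either age, and the MS excess was 1.35 ± 0.10 at day 90 (adjusted p = 1.5e-16) and 1.27 ± 0.10 at day 110 (adjusted p = 1.3e-15). The crosses lay between, with means of 9.62 in LWMS and 9.97 in MSLW at day 90 and of 9.88 and 10.18 at day 110. A_72_P610399 went the other way. At day 90 it ranged from 13.81 to 14.37 (LW, median 14.29) and from 13.23 to 13.62 (MS, median 13.41), and at day 110 from 13.62 to 14.11 (median 13.92) and from 12.95 to 13.33 (median 13.15), again without overlap of the breeds. Its difference was -0.81 ± 0.10 at day 90 and -0.75 ± 0.10 at day 110 (adjusted p = 4.4e-09 and 2.0e-08), and its crosses had means of 13.77 and 13.97 at day 90 and of 13.65 and 13.52 at day 110. The other 12 LDB3 probes had day 90 differences of -0.40 to 0.25, none past the threshold, and at day 110 a single further probe passed, as lower in MS (A_72_P559654, -0.31), which was -0.033 and did not pass under 75th percentile scaling (adjusted p = 0.838) and did not pass with non-uniform spots kept (adjusted p = 0.013). The differences of the pair kept size and call under 75th percentile scaling (1.33 and 1.28, -0.77 and -0.61).

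**Figure D3:**
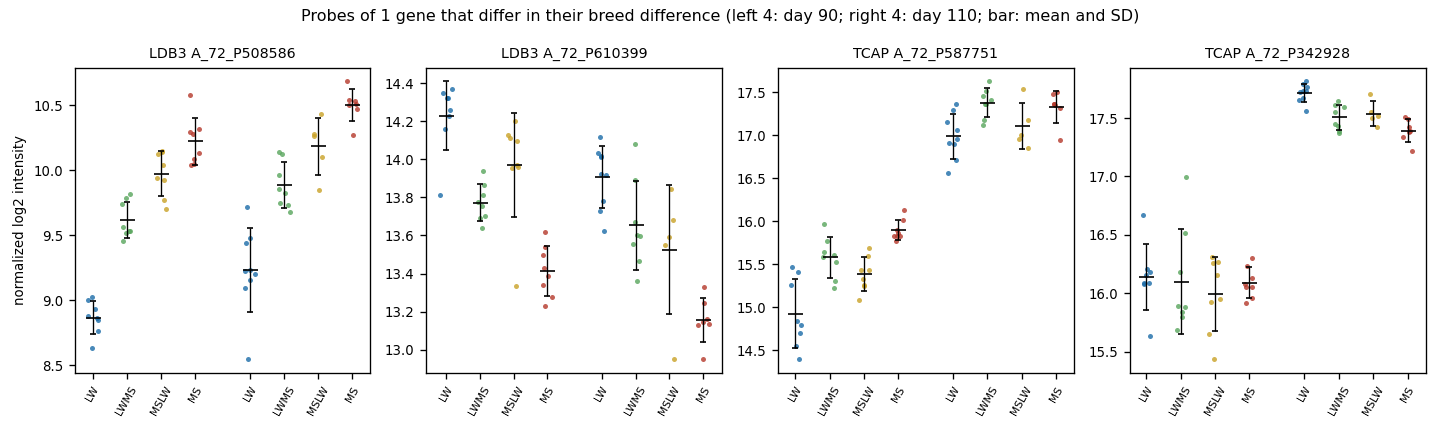
Normalized log2 intensity (y axis) of a pair of LDB3 probes and of the overlapping pair of TCAP probes in every fetus, by genotype, with day 90 on the left and day 110 on the right; bars give the group mean and SD. In MS the first LDB3 probe is above and the second below its LW values at both ages, with the means of the crosses between, and only the first TCAP probe separates MS from LW at day 90.

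TCAP, the titin cap, rose in every genotype with every probe and without overlap between the ages. Its brightest probe (O8747) went from a median of 17.53 (17.35 to 17.75) to 18.56 (18.47 to 18.69) in LW and from 17.91 (17.74 to 18.03) to 18.49 (18.39 to 18.55) in MS. The 5 MSLW fetuses of day 110 had 18.45, 18.59, 18.48, 18.45 and 18.55. The rise was 1.04 ± 0.07 in LW (2.05-fold) and 0.59 ± 0.08 in MS (1.51-fold), and MS started higher at day 90, by 0.36 ± 0.07 (adjusted p = 0.0002). The smaller rise of MS, -0.44 ± 0.10 (adjusted p = 0.0029), became 0.064 under 75th percentile scaling, and the day 90 difference became 0.25 without passing. The other TCAP probes rose by 1.46 and 1.75. That overlapping pair disagreed on the breeds at day 90, where A_72_P587751 gave 0.97 ± 0.12 (higher in MS, adjusted p = 7.6e-09, LW 14.40 to 15.46 and MS 15.77 to 16.14, no overlap) and A_72_P342928 gave -0.048 ± 0.12 (LW 15.63 to 16.67, MS 15.91 to 16.30). The excess of the first at day 90 held under the other scaling (0.93). At day 110 neither of the pair passed between the breeds. The second then lay lower in MS without overlap (LW 17.56 to 17.81, MS 17.22 to 17.51). The first overlapped there (LW 16.56 to 17.37, MS 16.95 to 17.50).

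**Figure D4:**
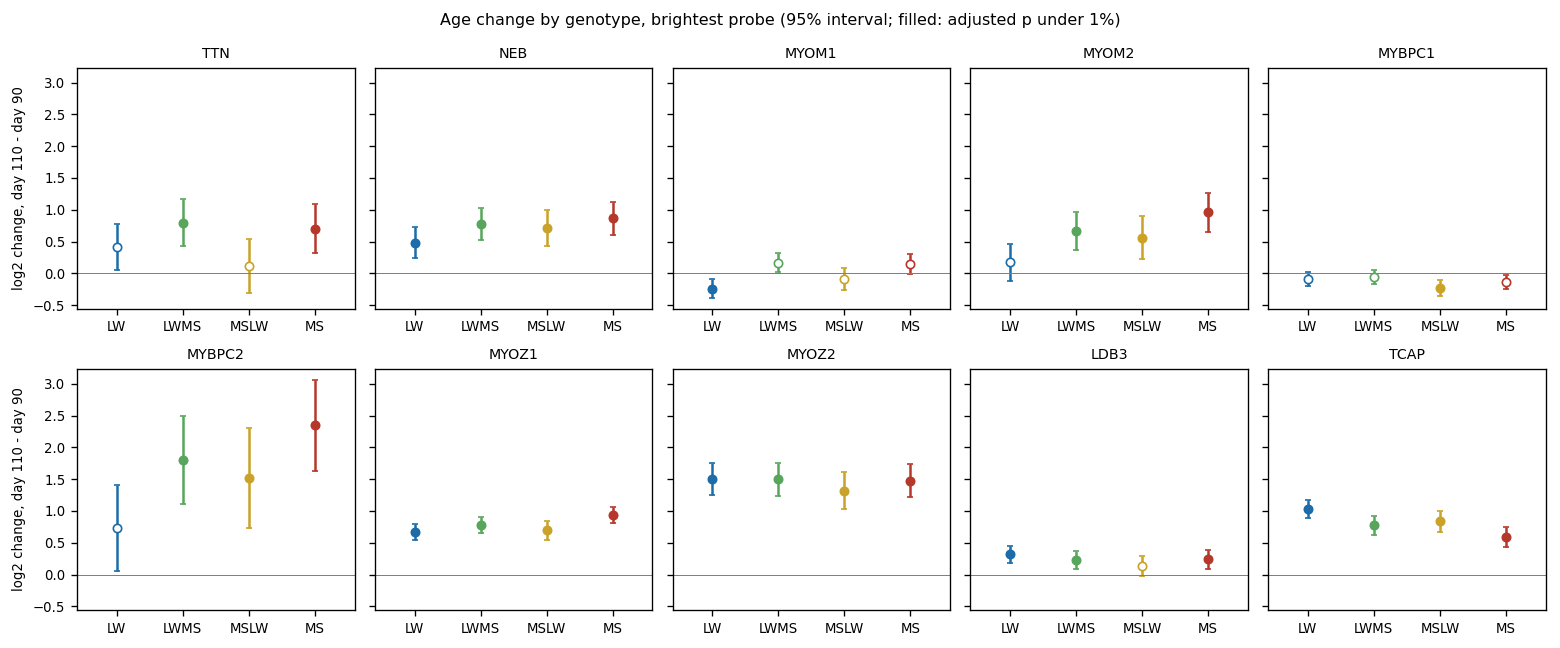
Log2 change from day 90 to day 110 (y axis) of the brightest probe of each gene in each genotype, with 95% intervals, filled where the adjusted p was under 1%. MYOM2 and MYBPC2 rise in MS and both crosses and not past the threshold in LW; the fall of MYOM1 in LW, the fall of MYBPC1 in MSLW and the order of the TCAP rises all turn or vanish when arrays are scaled to their 75th percentile.

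The comparison of the purebreds asked where MS and LW differed at each age. At day 90, 8 of 39 member probes differed, 4 higher and 4 lower in MS, beside 12.8% of all kept probes (6.23% and 6.61%). These were the dim MYBPC2 probe of the study's list, A_72_P508586 of LDB3, and O8747 and A_72_P587751 of TCAP on the higher side, with A_72_P610399 of LDB3, the overlapping nebulin pair and MYOZ2 on the lower side. At day 110, 20 differed, 17 higher and 3 lower, beside 29% of all kept probes (13.7% and 15.2%). The 17 were all 5 of TTN, all 4 of MYOZ1, both of MYOM1, MYOM2 and MYBPC2, 1 of NEB and 1 of LDB3, and the 3 were MYOZ2 and a pair of LDB3. The 75th percentile scaling gave 25 higher and 1 lower, beside 17% and 12.8% of all kept probes. Without the 5 probes named only by the study's list, 7 differed at day 90 and 15 at day 110.

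Other genes moved in the same contrast at day 110. The summed fibroblast intensity ranged from 75167 to 97779 in MS and from 117466 to 188648 in LW, with 4 of 5 genes lower in MS. MYH3 was lower by -2.87 (adjusted p = 1.6e-16), with intensities of 8955 to 20441 in MS and 30561 to 155376 in LW. Of 10 fast fibre genes 3 were higher in MS and 0 lower, and of 7 slow fibre genes 1 was higher and 1 lower. The part of these in the member differences was not tested.

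**Figure D5:**
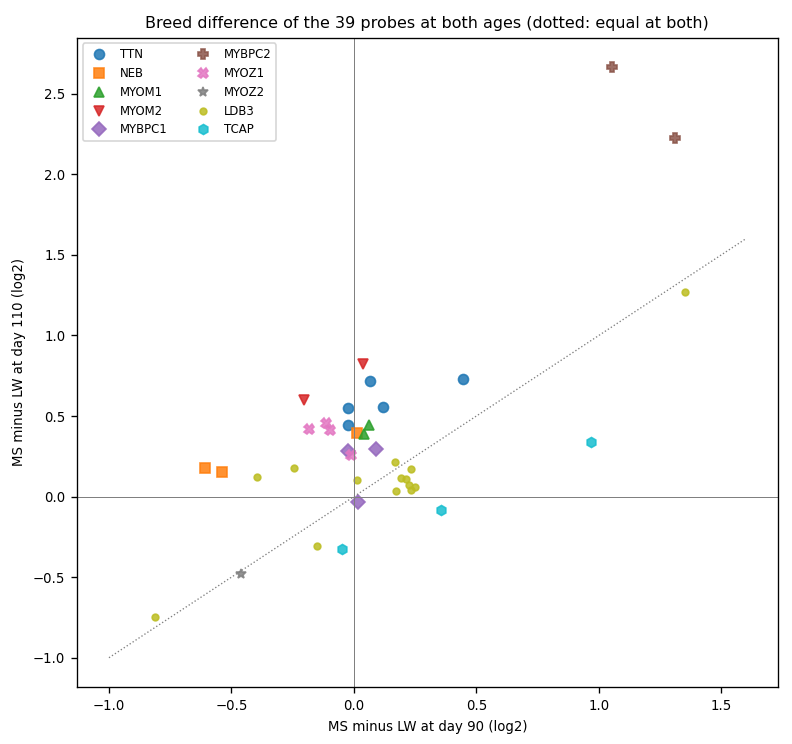
Log2 difference of MS minus LW at day 110 (y axis) against that at day 90 (x axis) for each of the 39 probes, marked by gene, with a dotted line where both are equal. The probes of TTN, MYOM1, MYOM2, MYOZ1 and MYBPC2 lie above the line, a pair of LDB3 probes lies near the line at opposite ends, and TCAP lies below the line under quantile normalization.

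The change from day 90 to day 110 itself differed between MS and LW for 9 of 39 member probes, 7 larger in MS and 2 smaller, beside 5.95% of all kept probes (2.56% and 3.39%). They were 3 titin probes (0.47 to 0.65), both MYOM2 probes (0.78 ± 0.21 and 0.81 ± 0.19), 2 MYOZ1 probes (0.51 and 0.57) and, on the smaller side, 2 TCAP probes (-0.44 and -0.63). With 75th percentile scaling 11 were larger and 0 smaller, beside 4.74% and 2.71% of all kept probes. The 3 titin probes and A_72_P064551 of MYOM2 stood on the study's list, drawn from these fetuses for that very interaction. Without the 5 probes that only the list names, 6 remained of 34. For MYBPC2 the difference was large but imprecise, 1.61 ± 0.49 (95% interval 0.63 to 2.59, adjusted p = 0.021), and for the brightest nebulin probe it was 0.38 ± 0.18 (adjusted p = 0.14).

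Crossbred fetuses allow the sow's and the boar's breed to be set apart. Between MSLW and LWMS, none of the 39 member probes passed at day 90 (0.5% of all kept probes did) or at day 110 (0.912%) by limma, and with the array slide as a block 2 passed at day 90. At an unadjusted p under 0.05 there were 17 and 2, beside 9.55% and 15% of all kept probes, and the median difference of the members was 0.19 at day 90 and -0.044 at day 110. No member probe passed between the crosses and the mean of the purebreds at either age (0.0495% and 0.0778% of all kept probes did), with 3 and 1 at an unadjusted p under 0.05, beside 3.63% and 7.02% of all kept probes. For MYBPC2 this difference was 0.40 at day 110, with a 95% interval from -0.12 to 0.93. The age change depended on the genotype of the sow for 7 member probes, all larger with an MS sow, beside 3.05% of all kept probes (1.16% larger and 1.89% smaller). They were 3 titin probes (0.29, 0.44 and 0.45), 2 MYOZ1 probes (0.38 and 0.40), the dimmer MYOM2 probe (0.53) and the brightest MYOM1 probe (0.33). This count rests on few fetuses, falling to 2 without the MSLW fetus of day 110 replicate 3, it was 11 with the slide as a block, and 4 remained without the probes of the study's list. The boar's genotype gave 0 by limma (0.462% of all kept probes), with 9 at an unadjusted p under 0.05, beside 14.1% of all kept probes. Age and the sow's breed vary only between litters, while the boar's breed can vary within them. Without a sow term the sow's test counts littermates as separate, so 7 and 0 cannot be set against each other. The study, with a random sow effect, reported more probes for the paternal than for the maternal genotype, against 0.462% and 3.05% here.

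Across probes of the same gene, 22 of 38 member probes differed in age change from the gene's other probes (diffSplice, 28.8% of the 14567 probes tested), 8 upward and 14 downward, and with 75th percentile scaling 10 did. For the difference of MS from LW over both ages, a comparison added after the values were seen, 6 of 38 did (8.92%), namely 4 LDB3 probes and the overlapping TCAP pair. The estimates were 1.30 and -0.95 for the LDB3 pair printed above, and 0.68 and -0.58 for the TCAP pair.

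Related sarcomere genes were taken from 5 lists of 53 genes, of which 40 had a kept named probe. On the mean of the genotypes 27 rose, 4 fell and 9 did not pass, where 37.3% of all kept probes rose and 35% fell. With 75th percentile scaling 35 rose and 3 fell, beside 40.2% and 31.5%. Of 6 genes of titin-bound and turnover proteins 4 rose and none fell, the largest being ANKRD23 (2.01, adjusted p = 4.8e-26), a muscle ankyrin repeat protein that binds titin. Of 22 other Z-disc genes 16 rose, the most SYNPO2 (1.29), and 2 fell, the most PALLD (-1.23), which encodes the actin-bundling palladin. Of 5 other M-band and thick filament genes 4 rose, the most MYBPH (2.49, adjusted p = 4.3e-28), a relative of the myosin-binding proteins C, and OBSL1, an obscurin-like M-band adaptor, fell (-1.24). Of 4 genes of thin filament length 2 rose, the most the leiomodin LMOD2 (1.11). Of 3 assembly chaperones UNC45B rose (0.20) and HSP90AA1 fell (-0.29), the fall turning to 0.24 under 75th percentile scaling. Between the breeds at day 110, 11 of the 40 exceeded LW in MS and 4 lay below it, beside 13.7% and 15.2% of all kept probes.

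The genes whose values most followed a member over the fetuses are given as a description for MYBPC2, MYOM2, titin and MYOZ2, once group and slide means were removed. For MYBPC2 these were STXBP2 (Pearson r = 0.78), PYGM (0.78) and LDHA (0.77) over 61 fetuses, and for MYOM2 GNPAT (0.75), HDLBP (0.71) and PYGM (0.70). Titin followed NFIA (0.66), VEGFA (0.65) and PPRC1 (0.63), and MYOZ2 followed ANKRD2 (0.65) most closely. The values share arrays and their technical spread.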

How the data were processed

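The members and gene lists were chosen with earlier results of these data known. The scanner intensity values that the authors deposited were read with Agilent Feature Extraction 10.10.1.1, and the deposited normalized log2 table of the authors (quantile normalized, 44368 spots) served as an alternative. Here the processed signal of 60306 spots without controls was used, non-uniform spots were set missing, and arrays were quantile normalized, put on a log2 scale and averaged per probe. Probes named through the study's list only were 5 of 39. Group means, contrasts and parental models were fitted to 42436 kept probes with limma 3.58.1 (R 4.3.3) without a sow term, unlike the study's model, because the labels give no sow. P-values were adjusted by Benjamini-Hochberg over all kept probes, with calls at 1%, and diffSplice compared probes within a gene. The steps were tested on simulated data. The number of arrays limits the precision. For each member the brightest probe was described in full and the others by range, and each related list was represented by its largest rise and fall. Alternatives covered signal, background (normexp offset 50), scaling, filter, slide, fitted groups and left-out fetuses.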

Additional observations from a re-analysis of the deposited data

Results flagged for a closer look

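In 9 of 112 groups of fetuses examined over 14 probes, a single fetus lay far from the others of its group, and chance alone marks about 1 in 20 groups. They were a TTN value of 14.21 in MS at day 110 (replicate 7), MYOM1 values of 14.31 in MSLW at day 90 (replicate 7) and 13.76 in LW at day 110 (replicate 3), a MYBPC1 value of 16.47 in LW at day 90 (replicate 8) and a MYOZ2 value of 14.24 in LW at day 110 (replicate 1). The others were TCAP values of 18.38 in LWMS at day 90 (replicate 6, O8747) and 16.95 in MS at day 110 (replicate 5, A_72_P587751), and values of LDB3 A_72_P610399 of 13.81 in LW (replicate 8) and 13.33 in MSLW (replicate 4) at day 90.

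For 16 tests the age change differed between groups by an interaction term. Between MS and LW these were TTN probes A_72_P001516 (0.47), A_72_P312298 (0.57) and A_72_P379383 (0.65), MYOM2 probes A_72_P064551 (0.78) and O6661 (0.81), MYOZ1 probes A_72_P741229 (0.51) and O12752 (0.57), and TCAP probes O8747 (-0.44) and A_72_P587751 (-0.63). By the sow's genotype they were the same 3 titin probes (0.29, 0.44 and 0.45), the same 2 MYOZ1 probes (0.38 and 0.40), O6661 of MYOM2 (0.53) and A_72_P320238 of MYOM1 (0.33).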

How the results depend on the processing

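Left-out fetuses aside, 137 counts of called member probes under the alternatives stayed within 1.5 times the count reported, 5 fell below and 2 rose above that. The 137 include counts of 0 that stayed 0, which say little about stability. Scaling to the 75th percentile lowered the probes that differed between MS and LW at day 90 from 8 to 5 and those that differed from their gene's other probes from 22 to 10. It reversed the age change of MYOM1 (0.49) and MYBPC1 (0.43), the day 110 breed difference of MYBPC1 (0.28) and the smaller TCAP rise of MS (0.064). The median over a gene's probes reversed the age change of MYBPC1 (0.25) and LDB3 (-0.29). Probes whose age change depended on the sow's genotype numbered 4 without the probes of the study's list, 4 with non-uniform spots kept and 11 with the slide as a block, which also called 2 probes between MSLW and LWMS at day 90 in place of 0. Fitting only LW and MS left 5 of 9 for the difference in age change. The cause of these changes was not tested. Leaving out each MSLW fetus of day 110 in turn gave 2 to 10 probes for the sow's genotype, the 2 without replicate 3, 24 to 25 for age in LW, 33 in MS, 26 to 27 in LWMS, 24 to 26 in MSLW, 7 to 8 and 20 for the breeds at day 90 and 110, 8 to 10 for the interaction and 21 to 22 for probes against their gene. Fetuses could not be matched within litters because the labels do not name the sow. The array slide was fitted as a block, which does not stand in for the litter. Signal over background limits the dim MYBPC2 probe, which few LW fetuses of day 90 showed.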

Other observations

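Probes described as titin or nebulin without carrying their gene symbol were looked at after the values of the members were seen. A pair near the titin 3′ end had mean log2 values of 17.06 and 16.72, against 14.33 for the brightest named titin probe. They changed by 0.16, which passed the test, and by 0.079, which did not, with no call between the breeds at either age. A probe of a partial pig titin mRNA rose by 0.53, with 0.18 in LW and 0.66 in MS, and stood 0.58 higher in MS at day 110 (limma adjusted p = 9.7e-05). A probe like the long cardiac titin isoform rose by 1.27, and a probe like the short novex isoform fell by 0.47 on the log2 scale. A nebulin-like probe rose by 0.92, with 0.64 in LW and 1.21 in MS. It stood 0.50 higher in MS at day 110 (limma adjusted p = 0.00021), with -0.065 at day 90, which did not pass. The fall, these rises and these breed differences were not examined under other scalings.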
